A study of Mus musculus with 4 samples.

Results

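The 8 genes described here are Tnik, Map4k1, Map4k2, Map4k3, Map4k4, Map4k5, Mink1 and Map3k5, out of 15093 genes in the count table of mouse peripheral blood mononuclear cells (PBMCs). They were chosen by name. Tnik is on the list because of its difference between treated and untreated mice in CD4+ T cells of these same 4 animals, so its value in that comparison is given as a description with no p. The other 7 genes were chosen by kinship or pathway, with earlier results of these data known. All 8 were found in the table, with 3518 unique molecular identifiers (UMIs, one per captured RNA molecule) for Tnik, 3274 for Map4k4, 2921 for Map3k5, 1633 for Map4k1, 1287 for Map4k5, 1017 for Map4k2, 592 for Map4k3 and 427 for Mink1.

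The kinases of the MAP4K family belong to the Ste20 group and stand at the top of the stress-activated kinase cascade, where they lead through MAP3K and MAP2K enzymes to the kinases JNK and p38. Tnik, Map4k4 (also called HGK) and Mink1 form the misshapen-like branch, whose members act as effectors of the small GTPase Rap2. Tnik also binds the TCF and beta-catenin complex of the Wnt pathway. Map4k1 (HPK1) is a blood cell kinase that dampens antigen receptor signalling by phosphorylating the adaptor encoded by Lcp2 (SLP-76) in T cells and Blnk in B cells. Map4k2, Map4k3 (GLK) and Map4k5 (KHS) are its closest relatives, and Map4k3 activates protein kinase C theta in T cells. Map3k5 (ASK1) is a MAP3K that reduced thioredoxin holds inactive and that oxidants release.

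PBMCs were taken from 4 female wild-type C57BL/6 mice aged 3.2 ± 0.3 months. In 2 treated mice the left ear had been exposed to non-thermal plasma (NTP, a partially ionized argon gas) for 10 min, and 2 untreated mice had no exposure. All 4 were anaesthetized with ketamine and xylazine, and blood was drawn 120 min after irradiation in treated mice and 120 min after the onset of anaesthesia in untreated mice. The mouse is the replicate (n = 2 per group), and each mouse gave 1 library.

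The authors' filtered table held 5794 cells and 23692981 UMIs, of which the treated mice gave 7093148 and 6700732 UMIs and the untreated mice 4653719 and 5245382. There were 4 cell barcodes that occurred in more than 1 mouse. The authors' cell type names were used. The CD4 and CD8 markers sat where the names place them: Cd4 had 141 UMIs per 1000000 UMIs (CPM) in CD4+ T cells and 1.18 CPM in CD8+ T cells, and Cd8b1 had 649.6 CPM in CD8+ T cells and 35.7 CPM in CD4+ T cells. The cells annotated as plasmablasts went against their name, since Jchain had 0 UMIs and the summed plasma cell markers were at 247 to 312 CPM over the mice, against 259 to 289 CPM in B cells. The cells annotated as NK cells carried summed NK cell markers at 636 to 1339 CPM, against 243 to 311 CPM in CD8+ T cells, but also T cell markers at 2424 to 2846 summed CPM, and had 1 UMI of Ncr1. Both are called annotated plasmablasts and annotated NK cells here.

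The genes are spread over 8 chromosomes and differ up to 28.5-fold in length (build mm10, GENCODE annotation). Tnik on chromosome 3 (28263214 to 28675858, plus strand) spans 413 kb, which is longer than 98.3% of the matched genes in the table. Map3k5 on chromosome 10 (19934472 to 20142753, plus strand) spans 208 kb, Map4k3 on chromosome 17 (80580512 to 80728485, minus strand) 148 kb and Map4k4 on chromosome 1 (39900913 to 40026310, plus strand) 125 kb. Map4k5 on chromosome 12 (69803750 to 69893200, minus strand) spans 89.5 kb and Mink1 on chromosome 11 (70562881 to 70614483, plus strand) 51.6 kb. Map4k1 on chromosome 7 (28982050 to 29003279, plus strand) and Map4k2 on chromosome 19 (6341135 to 6355615, plus strand) are the short genes, at 21.2 kb and 14.5 kb. Map4k2 overlaps Gm14966, and Map4k5 overlaps Atl1 and 4930512B01Rik, on the opposite strand.

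The proteins encoded by the annotated transcripts fall into the same branches. Tnik and Map4k4 were identical in 69.7% of the residues of the shorter protein, Tnik and Mink1 in 67.6%, and Map4k4 and Mink1 in 67.7%. Map4k3 and Map4k5 shared 70.1%, and the other pairs among Map4k1, Map4k2, Map4k3 and Map4k5 shared 43.8% to 56.8%. Map3k5 was the outlying sequence, at 12.6% to 22.0% with the other 7 proteins. No 2 of the 8 genes had a stretch of 31 identical bases in common in their annotated spliced transcripts. No read of that length or longer that matches these transcripts could therefore come from 2 members. Introns were not searched.

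The study centred on the microRNA miR-223-3p, which was measured in ear skin and not in these blood cells. Its mature sequence and the windows of the members' 3' untranslated regions that hold its seed match are shown because the treatment comparison covers these genes. Capitals mark bases 2 to 8 of the miRNA (RefSeq, GRCm38.p6, chrX:96242884-96242905) and, in the genes, the bases that pair with its bases 2 to 7 (GENCODE, mm10, plus strand):
mmu-miR-223-3p: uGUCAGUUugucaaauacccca
Tnik, chr3:28669429-28669434: acctttatgtgACTGACtgggattttcc
Map4k4, chr1:40024733-40024738: gagctgggatcACTGACctctggagtcg
Map3k5, chr10:20142131-20142136: ctgattgtcacACTGACtgtcttttgta
The coordinates are those of the capitals. Each of the 3 matches was a 6mer, the shortest class of seed match searched, and none of the 8 genes held a 7mer or 8mer for miR-223-3p. The other 5 members held no match. The 3' untranslated region of Tnik was 7876 bases long, against 1598 bases in Map4k4 and 1173 bases in Map3k5. Of the other miRNAs that the study followed, miR-144-5p was not searched. The Tnik region held 1 match to bases 2 to 8 of miR-451a, 2 to those of miR-144-3p and 1 to those of miR-142a-5p. Matches to bases 2 to 7 followed by an A were also found. Tnik held 2 of these for miR-144-3p and 1 for miR-142a-5p, and Map4k3 and Map4k5 each held 1 for miR-142a-5p. Among the members there was 1 match of 8 bases, for miR-144-3p in Map4k3. A match of letters is a description and not a site in use.

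Of the 8 genes Tnik had the highest ratio of CD4+ T cells over B cells. Its level in CD4+ T cells averaged 287 ± 50.5 CPM (SD, n = 4 mice), against 64.6 ± 2.84 CPM in B cells, a ratio of 4.43 that ranged over the mice between 3.72 and 4.93. In CD8+ T cells it averaged 214 ± 41.7 CPM and in annotated NK cells 189.6 ± 34.5 CPM. The ranges over mice of CD4+ T cells, CD8+ T cells and annotated NK cells overlapped from neighbour to neighbour. Without thinning of cells, B cells stood apart from both neighbours in the order, and annotated plasmablasts came last with 21.4 ± 11.1 CPM. With every cell thinned to equal depth, annotated NK cells (52.6 to 204.5 CPM over the mice) overlapped B cells (57.5 to 70.0 CPM). Each mouse gave only 13 to 22 annotated NK cells.

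The share of cells with a UMI of Tnik had the same order over CD4+ T cells, B cells and annotated plasmablasts, also at equal depth. It was 58.7% of 1517 CD4+ T cells (median depth 4429 UMIs per cell), 15.5% of 3130 B cells (3364 UMIs) and 5.27% of 474 annotated plasmablasts (3382 UMIs). After every cell was thinned to 2000 UMIs, which left out 276 shallower cells (17 CD4+ T cells, 224 B cells and 33 annotated plasmablasts), these shares were 36.4%, 10.3% and 3.63%. CD8+ T cells and annotated NK cells were deeper (medians of 5556 and 7114 UMIs) and had higher shares than CD4+ T cells, 59.2% and 61.6%. After thinning their shares were 30.4% and 19.2%, below that of CD4+ T cells. For scale, Cd79a, a B cell receptor gene that T cells should lack, was detected in 2.70% of the CD4+ T cells.

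**Figure D1:**
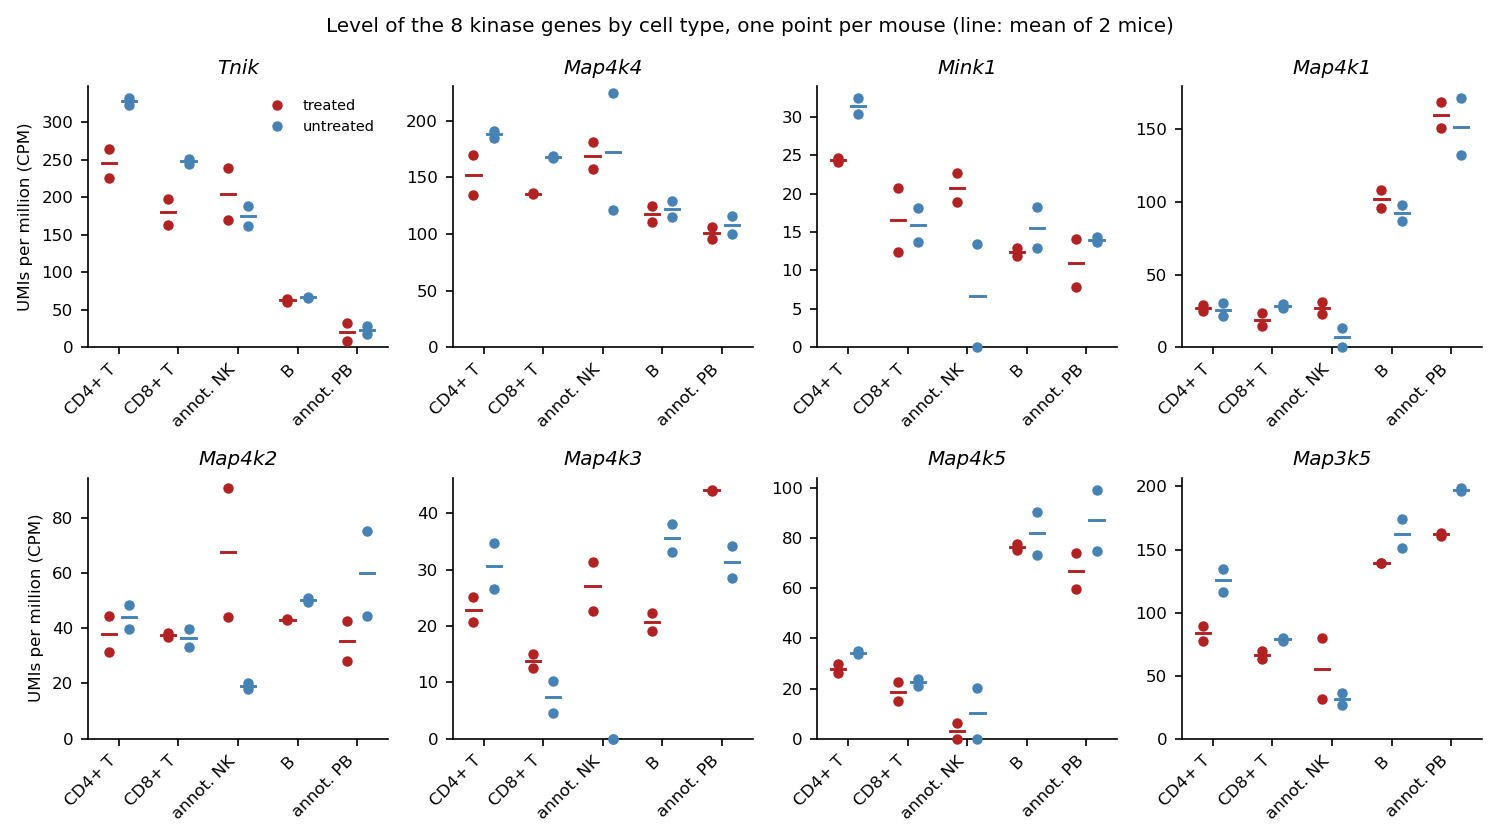
Level of the 8 kinase genes in UMIs per 1000000 UMIs (CPM, linear axis from 0, own scale per panel) by cell type, with 1 point per mouse, treated (red) and untreated (blue), and a line at the mean of 2 mice. Tnik, Map4k4 and Mink1 are higher in CD4+ T cells than in B cells, and Map4k1, Map4k5 and Map3k5 are higher in B cells. Annot. NK and annot. PB are the annotated NK cells and plasmablasts.

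The relatives of Tnik within its branch had the same direction at a smaller size. Map4k4 averaged 170.1 ± 25.5 CPM in CD4+ T cells and 152 ± 18.7 CPM in CD8+ T cells, against 119.9 ± 8.53 CPM in B cells. Its level in annotated NK cells (171 ± 43.3 CPM) could not be separated from that in CD4+ T cells, and annotated plasmablasts (105 ± 8.91 CPM) overlapped with B cells. With every cell thinned to 2000 UMIs, Map4k4 in CD4+ T cells (132 to 189.9 CPM) overlapped B cells (108 to 143 CPM). Mink1, the member with the fewest UMIs, had 27.9 ± 4.13 CPM in CD4+ T cells and between 12.5 and 16.2 CPM in the other 4 types, whose ranges overlapped.

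Map4k1, the blood cell kinase that acts on antigen receptor adaptors, was distributed the other way round. It averaged 26.6 ± 4.11 CPM in CD4+ T cells, against 97.3 ± 8.67 CPM in B cells, a ratio of 0.27 (0.22 to 0.35 over the mice). Annotated plasmablasts had the highest level, 156 ± 18.1 CPM, and their 4 mice did not overlap with the B cells. The levels in CD4+ T cells, CD8+ T cells (23.6 ± 6.66 CPM) and annotated NK cells (16.9 ± 13.4 CPM) overlapped.

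Map4k5 was also lower in T cells, at 31.1 ± 3.98 CPM in CD4+ T cells and 20.7 ± 3.88 CPM in CD8+ T cells, against 79.2 ± 7.75 CPM in B cells and 77.1 ± 16.4 CPM in annotated plasmablasts. Map4k2, first described in germinal centre B cells, was the most even gene, with means between 37.1 and 47.5 CPM in the 5 types and ranges that overlapped throughout the order. Map4k3 had 26.8 ± 5.92 CPM in CD4+ T cells and 28.2 ± 8.94 CPM in B cells, with overlapping ranges, and its lowest mean in CD8+ T cells, at 10.6 ± 4.51 CPM.

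Map3k5, the redox-regulated MAP3K, averaged 105 ± 25.9 CPM in CD4+ T cells and 151 ± 16.5 CPM in B cells, and the mice of the 2 types did not overlap. Its highest mean was in annotated plasmablasts (179.8 ± 20.6 CPM), whose range overlapped that of B cells. It was at 72.4 ± 7.75 CPM in CD8+ T cells and 43.4 ± 24.3 CPM in annotated NK cells.

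These differences between cell types are common among genes. In CD4+ T cells against B cells, 3 of the 8 members were higher in all 4 mice and 3 lower in all 4 without overlap, and among the 5728 genes with a mean of at least 20 CPM 20.6% were higher and 27.9% lower by the same rule. In CD8+ T cells against CD4+ T cells, Map4k3, Map4k5 and Mink1 were lower without overlap and no member was higher, against 12.8% of genes lower and 5.07% higher (Map4k3 lies under the minimum of 20 CPM here). In annotated plasmablasts against B cells, Map4k1 was higher and Tnik lower, against 15.6% of genes higher and 7.21% lower. Cell types were named by the authors from the same counts, so none of this was tested.

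The genes that moved together across the sums per mouse and cell type followed the branches in part. Over 16 sums (4 mice in each of 4 cell types, where the 4 sums of 1 mouse share a library), Tnik correlated with Map4k4 at r = 0.91 and with Mink1 at r = 0.74, and with Map4k1 at r = -0.93. Map4k5 correlated with Map3k5 at r = 0.94 and with Map4k1 at r = 0.92. Map4k3 and Map4k5, the pair with the highest protein identity, correlated at r = 0.69, below Map4k1 and Map3k5 at r = 0.87. How often pairs of other genes reach such values was not counted. Among 5758 genes, those most like Tnik were Gimap4 (r = 0.99), a GTPase of lymphocytes, Fxyd5 (r = 0.98), Myh9 (r = 0.98), which encodes a heavy chain of non-muscle myosin, Vps37b (r = 0.97) and Ttc28 (r = 0.97). The genes most like Map4k1 were Tfeb, Ubl3 and Unc119 (r = 0.99 each), and those most like Map4k5 were St8sia4, Pip5k1b (r = 0.99 each) and the NF-kB subunit gene Rel (r = 0.98). For Map3k5 they were Rere (r = 0.96), Msi2 (r = 0.96) and Ncoa1 (r = 0.96), for Map4k4 Rngtt (r = 0.95), Rapgef6 (r = 0.94) and Atp11b (r = 0.93), for Map4k3 Rb1 (r = 0.89), Samhd1 (r = 0.89) and Myo18a (r = 0.88), and for Map4k2 Abce1 (r = 0.87), Ggta1 (r = 0.85) and Sertad2 (r = 0.84). Mink1 was below the minimum mean of 20 CPM for this comparison.

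Because Map4k1, Map4k5 and Map3k5 shared the higher level in B cells, the 250 bases before their RefSeq start sites are shown (GRCm38.p6). Capitals mark the E-box letters CAGCTG, a palindrome that reads the same on both strands:
Map4k1, second start site, chr7:28982604-28982853, plus strand: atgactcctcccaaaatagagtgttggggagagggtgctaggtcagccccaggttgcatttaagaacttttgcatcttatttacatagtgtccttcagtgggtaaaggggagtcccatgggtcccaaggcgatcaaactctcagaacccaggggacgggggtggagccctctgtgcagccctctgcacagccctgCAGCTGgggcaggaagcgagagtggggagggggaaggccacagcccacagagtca
Map4k5, chr12:69893164-69893413, minus strand: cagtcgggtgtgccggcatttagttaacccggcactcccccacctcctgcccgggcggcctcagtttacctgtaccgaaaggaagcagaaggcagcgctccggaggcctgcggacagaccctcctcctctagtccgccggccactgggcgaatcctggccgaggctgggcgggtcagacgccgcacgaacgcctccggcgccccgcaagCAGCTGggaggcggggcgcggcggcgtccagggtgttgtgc
Map3k5, chr10:19934276-19934525, plus strand: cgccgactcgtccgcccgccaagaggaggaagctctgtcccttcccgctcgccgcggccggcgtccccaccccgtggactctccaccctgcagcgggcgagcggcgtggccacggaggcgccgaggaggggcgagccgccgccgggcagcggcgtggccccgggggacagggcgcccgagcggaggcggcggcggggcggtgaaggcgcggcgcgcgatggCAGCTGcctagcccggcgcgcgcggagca
The same letters were not in the windows of Map4k2, Map4k3 and Mink1, nor in that of the first start site of Map4k1 (Tnik and Map4k4 were not searched), and 13.0% of 32851 mouse promoters of this length held them. CAGCTG was 1 of 6 motifs searched on both strands, none of which lies within another. It was the only 1 that Map4k1, Map4k5 and Map3k5 all held, so marking it is no test. The others were CCGGAAG (ETS factors), TGTGGT (RUNX), ATGCAAAT (the octamer), CTTTGAT (TCF factors) and GGGCGG (SP1). GGGCGG was in the windows of Map4k2, Map4k3, Map4k5, Mink1 and Map3k5 and in 32.7% of all promoters, CCGGAAG was in the first window of Map4k1 and in 6.91% of all promoters, and the other three were in none of these windows. By the GENCODE positions given above, the marked letters of Map4k1 and Map3k5 lie inside the gene. Those of Map4k5 lie across the start of the gene. A match is a description only.

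The authors' 12 clusters divide B cells, CD4+ T cells and annotated plasmablasts further, while CD8+ T cells are 1 cluster (593 of 600 cells) and annotated NK cells 1 cluster (72 of 73 cells). Tnik varied between the clusters of CD4+ T cells and of B cells. Of the CD4+ T cell clusters, cluster 5 (444 cells) had 392 CPM of Tnik and cluster 8 (144 cells) 358 CPM, against 209.6 CPM in cluster 3 (784 cells) and 187 CPM in cluster 7 (154 cells). Ribosomal protein genes took 28.2% of UMIs in cluster 5, 27.9% in cluster 8, 37.96% in cluster 3 and 35.5% in cluster 7. Of the B cell clusters, Tnik was at 90.3 CPM in cluster 2, 63.3 CPM in cluster 0 and 34.7 CPM in cluster 1, while cluster 10 (80 cells) held 2 UMIs of Tnik, or 4.88 CPM. Ribosomal shares of UMIs in clusters 2, 0 and 1 were 20.2%, 26.3% and 32.5%. Map3k5 had the same order in these clusters, with 199 CPM in cluster 2, 142 CPM in cluster 0 and 84.9 CPM in cluster 1. In CD4+ T cells Map3k5 had 183 CPM in cluster 8 and 133 CPM in cluster 5, against 70.9 CPM in cluster 3. Map4k1 varied less over the same B cell clusters, with 105 CPM in cluster 2, 91.8 CPM in cluster 0 and 85.6 CPM in cluster 1, and had 168 CPM in cluster 10. What part the ribosomal share has in these levels was not tested.

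The central comparison of the series asks what NTP on the ear changes in blood cells 120 min later. No member passed the test in any cell type, and the fitted differences leaned towards lower levels in treated mice. edgeR's quasi-likelihood test on sums per mouse, with Benjamini-Hochberg adjustment over all genes tested, called 0 of 8 members in CD8+ T cells, in CD4+ T cells and in B cells, and 0 of the 7 that passed the filter on low counts in annotated plasmablasts (Mink1 did not pass). Over the 31 values, 24 log2 fold changes were below 0, and both treated mice were below both untreated mice in 17 and above them in 2. These counts include the contrast by which Tnik was chosen. Over all genes tested, 48.9% to 49.6% of log2 fold changes were below 0 in the 4 types, and both treated mice were below both untreated mice for 20.1% to 26.1% and above them for 12.6% to 16.6%. Exact permutation of 2 against 2 animals could reach no p below 0.33 for a single gene. The p-values given here come from edgeR's model of counts, which moderates the spread between these animals with that of all genes tested. They do not measure the spread of a single gene alone.

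**Figure D2:**
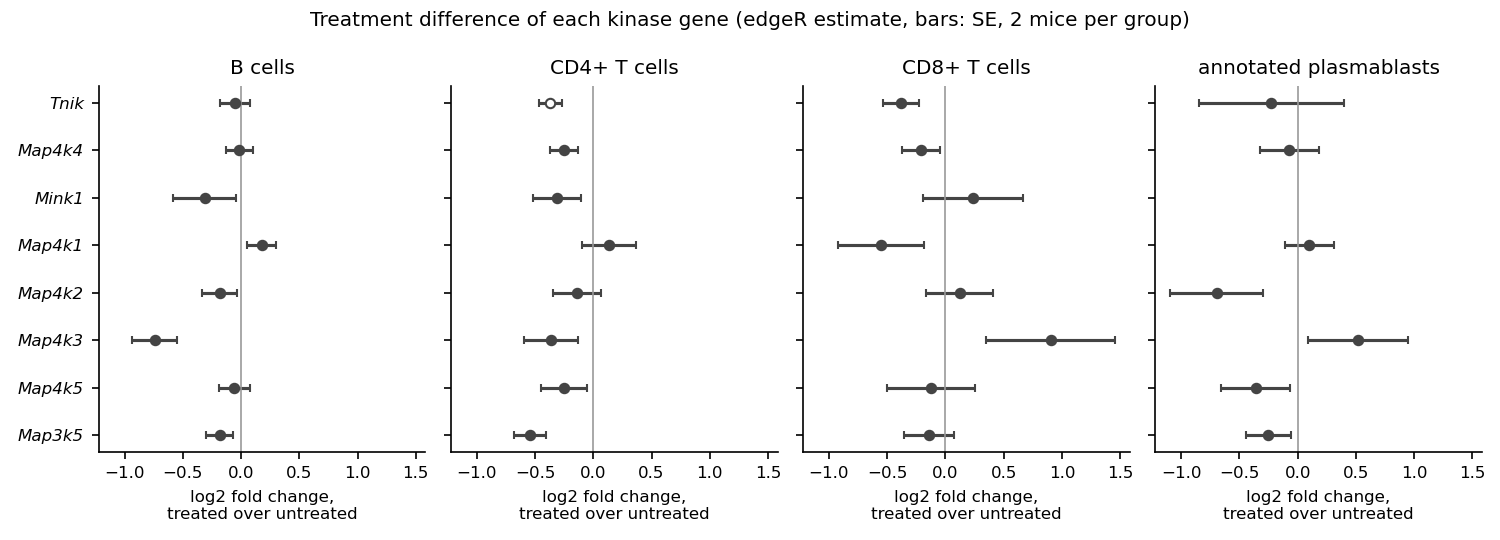
Fitted log2 fold change of each kinase gene, treated over untreated mice, in 4 cell types, with points for edgeR's estimate and bars for its SE (2 mice per group). The open point is Tnik in CD4+ T cells, the value by which Tnik was chosen. Map3k5 lies below 0 in each panel, though its value in CD8+ T cells turns to 0.017 with the trend on gene length removed, and Map4k3 lies below 0 in B cells and CD4+ T cells and above 0 in CD8+ T cells and annotated plasmablasts.

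Calls were as rare among all genes. By the same test the share called was 0.0294% of 6798 genes in CD8+ T cells, 0.0186% of 5372 genes in annotated plasmablasts, and 0% of 8680 genes in CD4+ T cells and of 9903 genes in B cells. limma-voom called 1 gene in CD8+ T cells, 1 in annotated plasmablasts and 0 in the others, and DESeq2 called 0 in all 4. An unadjusted p under 0.05 was reached by 574, 365, 416 and 460 of these genes in the same order. The lower ones among them were 3.84%, 3.69%, 2.37% and 2.19% of the genes tested, and the higher ones 4.6%, 3.11%, 2.42% and 2.45%. Apart from the contrast that chose Tnik, 3 member values reached it, each of them lower, which were Tnik in CD8+ T cells, Map3k5 in CD4+ T cells and Map4k3 in B cells.

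Tnik in CD4+ T cells had 264 and 226 CPM in treated mice, against 332 and 324 CPM in untreated mice. Both treated mice were below both untreated mice, and the treated mean was 245 ± 27.2 CPM, against an untreated mean of 328 ± 6.04 CPM (SD, n = 2 each). The fitted log2 fold change was -0.37 (SE 0.10). This is the comparison by which the gene was chosen.

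CD8+ T cells were not used to choose Tnik but come from the same mice, and there it had 197 and 163 CPM in treated mice, against 245 and 251 CPM in untreated mice. The groups did not overlap, and the log2 fold change was -0.38 (SE 0.15, edgeR unadjusted p = 0.0155, adjusted p = 0.545). In B cells Tnik had 64.5 and 60.7 CPM in treated mice, against 67.3 and 65.9 CPM in untreated mice, again without overlap but with a log2 fold change of -0.054 (SE 0.13, edgeR adjusted p = 0.983), whose sign turned in 3 of 11 alternatives. In annotated plasmablasts the values were 7.86 and 32.1 CPM in treated mice, against 28.6 and 17.1 CPM in untreated mice, from 34 UMIs in all. The difference between cell types did not pass a test: CD8+ T cells minus B cells gave -0.34 on the log2 scale (SE 0.20, edgeR interaction, unadjusted p = 0.0942, adjusted p = 1), in a test that called 0.0105% of 9557 genes. CD4+ T cells minus B cells gave -0.32 (SE 0.16), which includes the choosing contrast.

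The ribosomal share of UMIs moved with the lower Tnik of treated T cells. The ribosomal protein genes' share of UMIs in CD4+ T cells was 33.7% and 35.0% in treated mice, against 32.6% and 32.9% in untreated mice. It was, in CD8+ T cells, 38.5% and 39.8% in treated mice, against 36.5% and 36.4% in untreated mice. Cluster 5, where Tnik is high, held 28.1% and 24.7% of the CD4+ T cells of treated mice, against 39.2% and 27.5% in untreated mice, and these shares overlapped. With the make-up of clusters balanced between mice, the log2 fold change of Tnik in CD4+ T cells was -0.34. Within cluster 5 Tnik had 345 and 356 CPM in treated mice, against 439 and 426 CPM in untreated mice. In cluster 3 the values were 211 and 179 CPM in treated mice, against 209 and 248 CPM in untreated mice, and overlapped. The part of the ribosomal share was not tested.

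Log2 fold changes below 0 were also frequent among long genes. Of genes over 100 kb, 73.0% in CD8+ T cells, 70.1% in CD4+ T cells, 69.3% in annotated plasmablasts and 73.8% in B cells had a log2 fold change below 0. Their medians were -0.16, -0.10, -0.13 and -0.10 in the same order, while the medians of all genes were between 0.0035 and 0.0067. Across genes, length and log2 fold change had Spearman correlations between -0.33 in CD8+ T cells and -0.27 in CD4+ T cells (-0.29 in B cells and in annotated plasmablasts), where genes share libraries and are not independent replicates. Tnik, Map3k5, Map4k3 and Map4k4 are all over 100 kb. With the trend of counts on gene length removed from each mouse, an alternative chosen after seeing the data, the log2 fold change of Tnik was -0.24 in CD4+ T cells and -0.19 in CD8+ T cells.

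**Figure D3:**
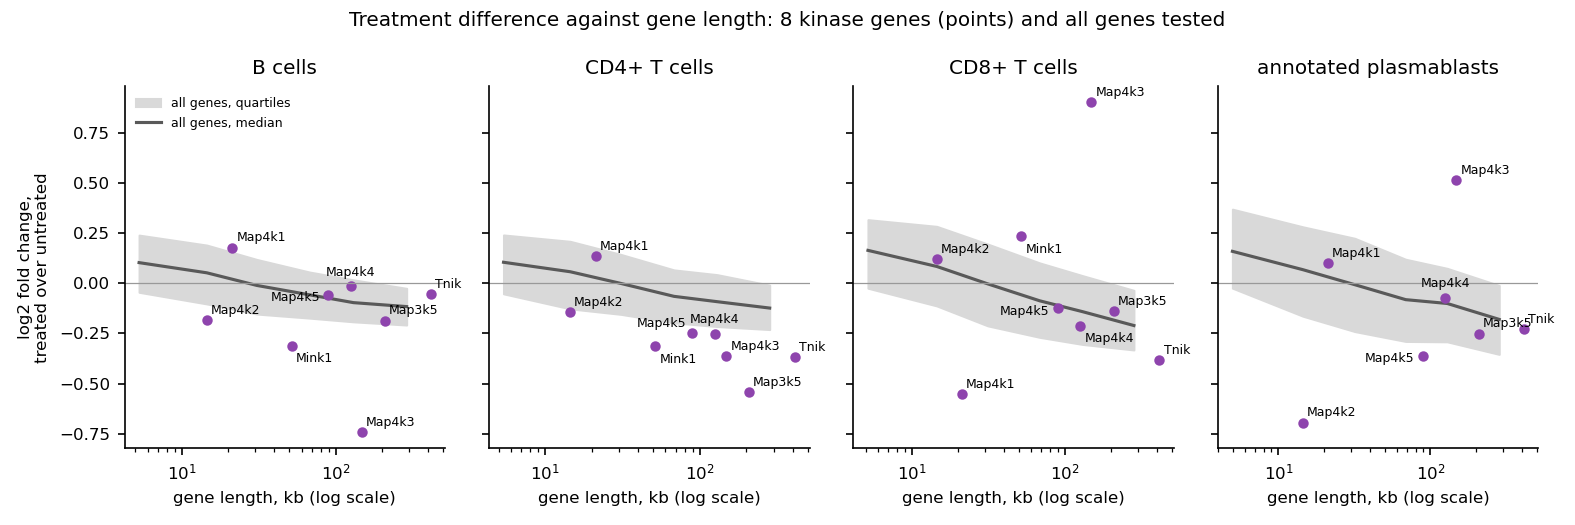
Log2 fold change (treated over untreated) of the kinase genes against gene length in kb on a log axis, in 4 cell types. The grey line and band are the median and quartiles of all genes tested in 6 length bins, which slope down from short to long genes. In CD4+ T cells each member but Map4k1 lies below the lower quartile of its length bin, which includes the value by which Tnik was chosen. In the other types only Map4k2, Map4k3 and Mink1 (B cells), Tnik and Map4k1 (CD8+ T cells), and Map4k2 and Map4k5 (annotated plasmablasts) do so.

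Within Tnik's branch, Map4k4 had 170.1 and 134 CPM in treated CD4+ T cells, against 191 and 185 CPM in untreated ones (log2 fold change -0.25, SE 0.12, edgeR adjusted p = 0.903). Treated CD8+ T cells had 136 and 136 CPM of Map4k4, against 169 and 167 CPM in untreated ones (log2 fold change -0.21, SE 0.16, edgeR adjusted p = 0.774). In both T cell types the groups of Map4k4 did not overlap, and over the alternatives its log2 fold change lay between -0.41 and -0.11 in CD4+ T cells and between -0.24 and -0.085 in CD8+ T cells, where the value nearest 0 came with the length trend removed. In B cells they did, with a log2 fold change of -0.014 that turned in 5 of 11 alternatives. Mink1 in CD4+ T cells had 24.6 and 24.1 CPM in treated mice, against 32.4 and 30.3 CPM in untreated mice (log2 fold change -0.31, SE 0.20, edgeR adjusted p = 0.914; between -0.55 and -0.26 over the alternatives), and its groups overlapped in B cells and CD8+ T cells.

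Map3k5 was the member whose treated mice were both below the untreated mice in each of the 4 fitted types, although its fitted value in CD8+ T cells turned to 0.017 with the length trend removed. The 4 types come from the same mice and libraries. How many of all genes were lower in this way in all 4 types was not counted, so the pattern cannot be called particular to Map3k5. In CD4+ T cells it had 77.7 and 89.5 CPM in treated mice, against 135 and 117 CPM in untreated mice, a log2 fold change of -0.54 (SE 0.14, edgeR unadjusted p = 0.00254, adjusted p = 0.903) that was -0.44 with the length trend removed. In B cells the values were 139 and 139 CPM in treated mice, against 174 and 151 CPM in untreated mice (log2 fold change -0.19, SE 0.11, edgeR adjusted p = 0.934). CD8+ T cells had 63.1 and 69.3 CPM in treated mice, against 80.1 and 77.3 CPM in untreated mice (log2 fold change -0.14, SE 0.21, edgeR adjusted p = 0.912). Annotated plasmablasts had 163 and 161 CPM in treated mice, against 197 and 199 CPM in untreated mice (log2 fold change -0.25, SE 0.19, edgeR adjusted p = 0.839). With clusters balanced the value in annotated plasmablasts was -0.046, and with the length trend removed it was -0.12. In B cells it was -0.084 with the length trend removed and -0.089 without untreated mouse 1. The difference of Map3k5 in CD4+ T cells minus that in B cells was -0.36 on the log2 scale (SE 0.16, edgeR interaction, unadjusted p = 0.0324, adjusted p = 1), in a test that called 0.00986% of 10143 genes.

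Counted over the members, both treated mice were below both untreated mice for 6 of 8 in CD4+ T cells, where the count includes the contrast that chose Tnik, for 4 of 8 in B cells, for 4 of 8 in CD8+ T cells and for 3 of 7 in annotated plasmablasts. Over all genes tested the same held for 21.9% in CD4+ T cells, 20.2% in B cells, 26.1% in CD8+ T cells and 20.1% in annotated plasmablasts. The opposite order was seen for 1 member (Map4k3) in CD8+ T cells and in annotated plasmablasts and for 0 members in the other types, against 12.6%, 16.6%, 13.3% (CD4+ T cells) and 14.5% (B cells) of all genes.

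Within the author clusters Map3k5 also leaned one way. Of the 9 clusters with at least 20 cells in every mouse, the treated mean was lower in 9, and both treated mice were below both untreated mice in 5. The clusters come from the same mice and libraries and are not independent repeats. How many of all genes had a lower treated mean in all 9 was not counted. Over all 49800 pairs of such a cluster and a gene with a mean of at least 20 CPM in it, both treated mice were below both untreated mice in 18.3%. Both were above in 15.5%. In cluster 6 of annotated plasmablasts Map3k5 had 188 and 183 CPM in treated mice, against 209 and 229 CPM in untreated mice. In cluster 8 of CD4+ T cells it had 171 and 136 CPM in treated mice, against 204 and 195 CPM in untreated mice. In cluster 0 of B cells the groups overlapped, with 127 and 148 CPM in treated mice, against 187 and 123 CPM in untreated mice. Clusters 7, 10 and 11 have under 20 cells in some mouse, and the treated means were the higher ones in clusters 10 and 11. Tnik was lower without overlap in 2 of the 9 clusters and higher in 1. For the other members the counts of lower and higher clusters were 1 and 3 for Map4k1, 2 and 0 for Map4k2, 3 and 2 for Map4k3, 3 and 0 for Map4k4, 3 and 0 for Map4k5, and 3 and 1 for Mink1. Mink1 was under 20 CPM in most of these clusters, and such pairs are not in the shares over all pairs. Its higher cluster, 9, held 6 UMIs of Mink1, and cluster 6, among the lower ones, held 14.

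**Figure D4:**
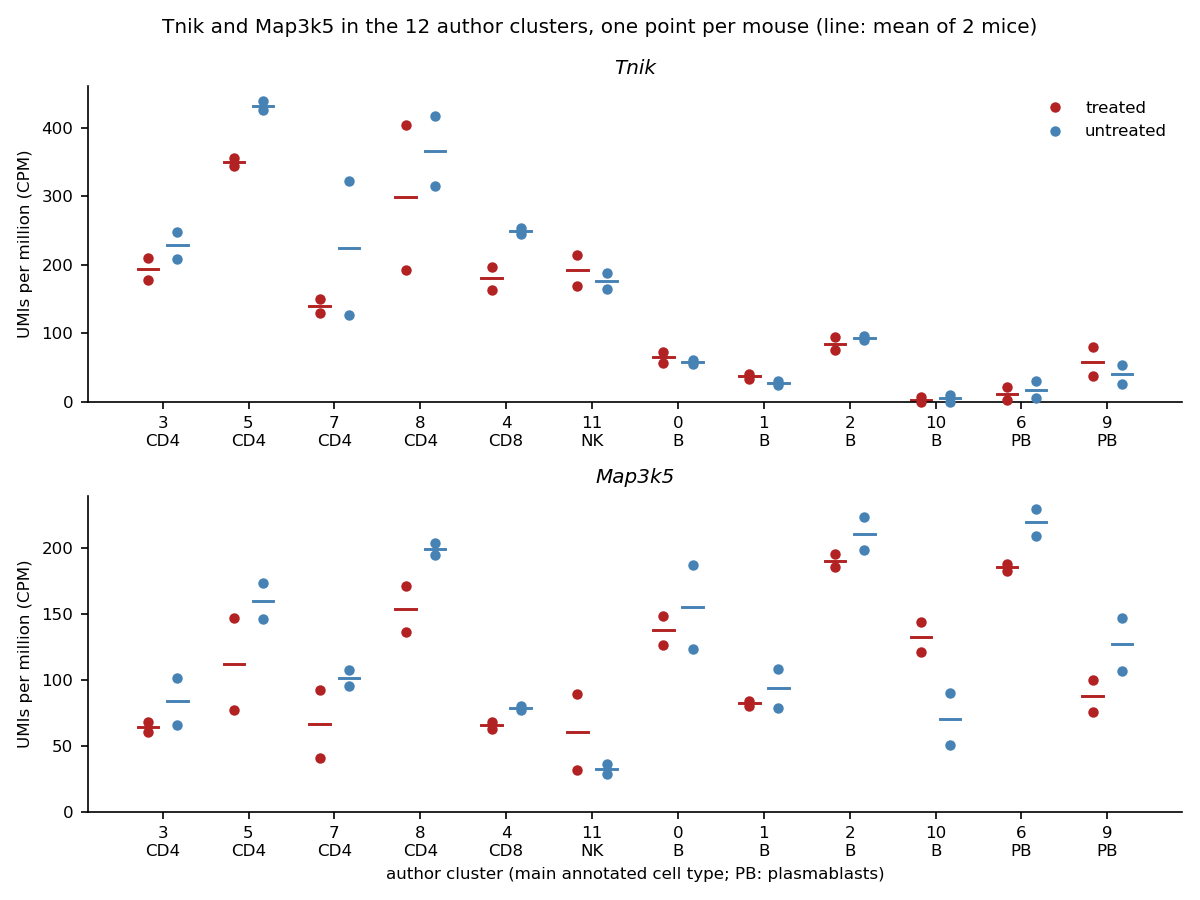
Level of Tnik (top) and Map3k5 (bottom) in UMIs per 1000000 (CPM) in the 12 author clusters, grouped by main cell type, with 1 point per mouse, treated (red) and untreated (blue), and a line at the mean of 2 mice. Tnik is highest in clusters 5 and 8 of CD4+ T cells, and the treated mean of Map3k5 is the lower one in every cluster but 10 and 11.

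Map4k3, the activator of protein kinase C theta, had opposite directions in different cells. In B cells it had 19.1 and 22.4 CPM in treated mice, against 38.1 and 33.2 CPM in untreated mice, a log2 fold change of -0.74 (SE 0.19, edgeR unadjusted p = 0.00146, adjusted p = 0.934) that was -0.65 with the length trend removed. In CD4+ T cells the values were 25.1 and 20.6 CPM in treated mice, against 26.6 and 34.8 CPM in untreated mice (log2 fold change -0.36, SE 0.23, edgeR adjusted p = 0.906). CD8+ T cells had 15.1 and 12.6 CPM in treated mice, against 4.53 and 10.2 CPM in untreated mice, from 37 UMIs in all (log2 fold change 0.90, SE 0.55, edgeR adjusted p = 0.697). Annotated plasmablasts had 44.0 and 44.2 CPM in treated mice, against 28.6 and 34.2 CPM in untreated mice (log2 fold change 0.52, SE 0.43, edgeR adjusted p = 0.845). The groups did not overlap in any of the 4 types. The log2 fold change in annotated plasmablasts was 0.059 with equal cells per mouse and that in CD8+ T cells was 0.53 without untreated mouse 1 and 1.64 without untreated mouse 2. In cluster 6, which holds most annotated plasmablasts, Map4k3 had 42.4 and 30.03 CPM in treated mice, against 39.9 and 44.9 CPM in untreated mice, with overlap. In cluster 9 it had 47.4 and 69.7 CPM in treated mice, against 0 and 13.4 CPM in untreated mice, from 13 UMIs in all. In CD4+ T cells the value was -0.15 without untreated mouse 2. Tests of the difference between types called 0.0105% of genes for CD8+ T cells against B cells, 0.0114% for CD8+ T cells against CD4+ T cells, 0.033% for annotated plasmablasts against B cells and 0% for annotated plasmablasts against CD4+ T cells, and Map4k3 was in none of these calls.

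Map4k1 was the member with a positive log2 fold change in each fitted type but CD8+ T cells, though without untreated mouse 1 its value was -0.093 in CD4+ T cells and -0.052 in annotated plasmablasts. In B cells it had 108 and 95.7 CPM in treated mice, against 98.0 and 87.1 CPM in untreated mice (log2 fold change 0.18, SE 0.12, edgeR adjusted p = 0.934), with overlap. CD8+ T cells had 23.3 and 14.4 CPM in treated mice, against 27.2 and 29.5 CPM in untreated mice (log2 fold change -0.55, SE 0.37, edgeR adjusted p = 0.728), without overlap and from 77 UMIs in all. Without treated mouse 1 this value was -0.87, and without treated mouse 2 it was -0.22. Map4k2 in B cells had 42.8 and 43.3 CPM in treated mice, against 51.0 and 49.4 CPM in untreated mice (log2 fold change -0.19, SE 0.15, edgeR adjusted p = 0.934), which was -0.10 with clusters balanced. In annotated plasmablasts Map4k2 had 42.4 and 28.1 CPM in treated mice, against 75.1 and 44.5 CPM in untreated mice (log2 fold change -0.70, SE 0.40, edgeR adjusted p = 0.784). The annotated plasmablasts of untreated mouse 1, with the highest Map4k2, also had 3713 summed CPM of red blood cell markers, against 13.7 to 113 CPM in the other 3 mice, and what part this has was not tested. Without that mouse the log2 fold change of Map4k2 in these cells was -0.26. Map4k5 had overlapping groups in B cells and CD8+ T cells, and in CD4+ T cells 26.1 and 29.8 CPM in treated mice, against 33.7 and 34.8 CPM in untreated mice (log2 fold change -0.25, SE 0.20, edgeR adjusted p = 0.920). In annotated plasmablasts Map4k5 had 59.7 and 74.3 CPM in treated mice, against 75.1 and 99.3 CPM in untreated mice (log2 fold change -0.36, SE 0.29, edgeR adjusted p = 0.843). Over the alternatives the value of Map4k5 lay between -0.36 and -0.13 in CD4+ T cells and between -0.53 and -0.16 in annotated plasmablasts. The 12 member values whose groups overlapped had log2 fold changes between -0.31 and 0.24.

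The genes around these kinases were followed as 6 lists, and none of their genes passed the adjusted test in any of the 4 fitted types. Counts and medians below run in the order CD8+ T cells, CD4+ T cells, annotated plasmablasts and B cells, and the named genes are, with 1 left out, those of the lists with an unadjusted p under 0.05, next to a few partners of the members. Of 29 genes of the JNK and p38 cascade, 22, 22, 17 and 25 were tested, and the medians of their log2 fold changes were 0.10, -0.017, -0.12 and 0.13, beside medians of 0.0035 to 0.0067 over all genes tested, which hold for each list. Mapk9, which encodes JNK2, had 33.0 and 43.3 CPM in treated B cells, against 63.9 and 45.2 CPM in untreated ones (log2 fold change -0.47, SE 0.19, edgeR unadjusted p = 0.0234, adjusted p = 0.934). Jund, an AP-1 subunit that JNK phosphorylates, had 483 and 361 CPM in treated CD8+ T cells, against 378 and 255 CPM in untreated ones (log2 fold change 0.51, SE 0.15, edgeR unadjusted p = 0.00196, adjusted p = 0.491), with overlap. Its log2 fold change was 0.26 (SE 0.10) in CD4+ T cells and 0.31 (SE 0.15) in annotated plasmablasts, without overlap in either. Mapkapk3, a kinase that p38 activates, had 20.6 and 17.1 CPM in treated CD8+ T cells, against 6.05 and 12.5 CPM in untreated ones (log2 fold change 1.02, SE 0.48, edgeR adjusted p = 0.582).

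The 18 regulators of ASK1, which hold Map3k5 in check or release it, gave medians of 0.044, 0.19, 0.063 and -0.066 over 12, 15, 11 and 15 genes tested. Txn2, the mitochondrial thioredoxin, had 62.5 and 60.2 CPM in treated CD4+ T cells, against 49.2 and 50.9 CPM in untreated ones (log2 fold change 0.34, SE 0.15, edgeR unadjusted p = 0.0444, adjusted p = 0.903). Its groups did not overlap. The log2 fold change in CD8+ T cells was 0.88 (SE 0.36, edgeR adjusted p = 0.556) for Stub1, which encodes the ubiquitin ligase CHIP, and -0.49 (SE 0.19, edgeR adjusted p = 0.545) for Pdcd6ip, which encodes ALIX.

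Among 27 antigen receptor adaptors, the substrates and partners of Map4k1 and Map4k3, the medians were 0.0045, -0.049, -0.073 and 0.058 over 22, 23, 18 and 21 genes tested. Lcp2, the Map4k1 substrate, had 39.8 and 54.0 CPM in treated CD8+ T cells, against 69.5 and 80.7 CPM in untreated ones (log2 fold change -0.56, SE 0.23, edgeR unadjusted p = 0.0218, adjusted p = 0.556). Crk, an adaptor with SH2 and SH3 domains, had 35.6 and 29.7 CPM in treated CD8+ T cells, against 51.4 and 54.5 CPM in untreated ones (log2 fold change -0.62, SE 0.27). Both were lower without overlap, while the 14-3-3 protein gene Ywhab had 111 and 109.8 CPM in treated CD8+ T cells, against 96.7 and 85.2 CPM in untreated ones (log2 fold change 0.38, SE 0.19). Ywhaq, another 14-3-3 protein gene, had 103 and 98.6 CPM in treated CD4+ T cells, against 79.0 and 82.5 CPM in untreated ones (log2 fold change 0.37, SE 0.12, edgeR unadjusted p = 0.0131, adjusted p = 0.903). Nck2, an adaptor of receptor signalling, had a log2 fold change of 0.56 in B cells (SE 0.23, edgeR adjusted p = 0.934). Blnk, the B cell counterpart of Lcp2, had 800.1 and 883 CPM in treated annotated plasmablasts, against 933 and 1058 CPM in untreated ones (log2 fold change -0.21, SE 0.15, edgeR adjusted p = 0.817). Prkcq, which encodes protein kinase C theta, had 586 and 557 CPM in treated CD4+ T cells, against 681 and 636 CPM in untreated ones (log2 fold change -0.15, SE 0.085, edgeR adjusted p = 0.903).

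The 20 Wnt and Rap2 partners of Tnik gave medians of -0.087, -0.0049, -0.22 and -0.10 over 15, 17, 13 and 18 genes tested. Csnk1e, which encodes casein kinase 1 epsilon, had 25.6 and 24.1 CPM in treated CD4+ T cells, against 17.5 and 13.5 CPM in untreated ones (log2 fold change 0.73, SE 0.25, edgeR unadjusted p = 0.0159, adjusted p = 0.903). Traf3, an adaptor of TNF receptors, had 71.1 and 90.6 CPM in treated CD4+ T cells, against 106 and 112 CPM in untreated ones (log2 fold change -0.39, SE 0.15, edgeR unadjusted p = 0.0261, adjusted p = 0.903). Apc, a scaffold of the beta-catenin destruction complex, had 176 and 128 CPM in treated annotated plasmablasts, against 189 and 229 CPM in untreated ones (log2 fold change -0.41, SE 0.20, edgeR adjusted p = 0.735). Nedd4l, a ubiquitin ligase, had 115 and 115 CPM in treated B cells, against 153 and 129.8 CPM in untreated ones (log2 fold change -0.26, SE 0.12, edgeR adjusted p = 0.934).

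The other Ste20 kinases and their Hippo partners, 22 genes, had medians of -0.073, -0.0057, -0.14 and -0.053 over 19, 21, 16 and 19 genes tested. Stk3, the Hippo kinase MST2, had 15.6 and 17.2 CPM in treated CD4+ T cells, against 23.3 and 26.4 CPM in untreated ones (log2 fold change -0.55, SE 0.25, edgeR unadjusted p = 0.0478, adjusted p = 0.903). Its log2 fold change in annotated plasmablasts was -1.01 (SE 0.47, edgeR adjusted p = 0.724). Taok3, a TAO kinase, had 121 and 128 CPM in treated annotated plasmablasts, against 154 and 219 CPM in untreated ones (log2 fold change -0.55, SE 0.22, edgeR adjusted p = 0.710). Lats1, the kinase below MST2, had 41.1 and 32.4 CPM in treated CD8+ T cells, against 22.7 and 22.7 CPM in untreated ones (log2 fold change 0.76, SE 0.33, edgeR adjusted p = 0.562).

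The 19 other MAP3K genes and their partners had medians of -0.13, 0.12, -0.035 and -0.039 over 10, 15, 8 and 17 genes tested. Map3k14, the NIK kinase of the non-canonical NF-kB pathway, had 56.8 and 56.8 CPM in treated CD4+ T cells, against 47.3 and 45.1 CPM in untreated ones (log2 fold change 0.35, SE 0.16, edgeR unadjusted p = 0.0491, adjusted p = 0.903). In B cells it had 40.2 and 43.0 CPM in treated mice, against 49.5 and 48.1 CPM in untreated mice (log2 fold change -0.20, SE 0.15). Tab2, a partner of the kinase TAK1, had both treated mice below both untreated mice in CD8+ T cells, CD4+ T cells and annotated plasmablasts, with log2 fold changes of -0.41, -0.26 and -0.38 and edgeR adjusted p of 0.607, 0.903 and 0.745.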

How the data were processed

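PBMC libraries (10x 3' kit) of 4 mice were analysed. The authors deposited raw UMI counts per gene and cell, and a table of cell types, clusters, UMIs per cell (equal to the recomputed totals in 5794 cells) and the percent of mitochondrial UMIs per cell, which the authors computed and which was not used here. Per the paper, reads were aligned to mm10, ambient RNA was treated with SoupX, outlying cells were filtered and doublets were removed with DoubletFinder before deposit, so no caller was run again. Cell Ranger 7.1.0 and Seurat 4.3.0 are named in the submitters' processing notes. The sources used here do not say whether the counts include the SoupX step or intronic reads, and either could change the level of long genes. All value columns were used (0 left out).

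UMIs were added up over the cells of a type in each mouse and tested with edgeR 4.0.16 (R 4.3.3, TMM, default low-count filter, quasi-likelihood), with Benjamini-Hochberg adjustment over all genes and a threshold of 0.05. Annotated NK cells (fewer than 20 cells in some mouse) were not fitted. The study's own test took cells as replicates and was not used. Scripts were tested on simulated data. Alternatives were DESeq2 1.42.0, limma-voom 3.58.1, RLE scaling, no filter, equal cell numbers, balanced clusters and leaving out each mouse. Removal of the gene length trend and the other interaction pairs were added after seeing the data. Of 15093 symbols, 14854 (98.4%) matched the annotation uniquely. Similarity between genes used log2(CPM + 10), without immunoglobulin and T cell receptor segments. CPM was not scaled by gene length, as is usual for 3' counting, so levels are compared within a gene.

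The members and gene lists were chosen with earlier results of these data known. All 8 members are named in every fitted type. The rule for the lists was up to 3 genes of smallest p per list and type. Of these, the text names those with an unadjusted p under 0.05, and Prkcq, Blnk, Tab2 and Map3k14 in B cells, a narrowing made with their values seen. One gene of the lists that met this is not reported here. The nearest 5 (Tnik) or 3 genes are named for likeness.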

Additional observations from a re-analysis of the deposited data

Results flagged for a closer look

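Map4k3 was flagged because its treated and untreated mice were fully separated in opposite directions in different cell types. Full separation by itself was frequent. Over all genes tested, both treated mice were below both untreated mice for 20.1% to 26.1% in the 4 types. Both treated mice were above both untreated mice for 12.6% to 16.6%. How many of all genes separate in opposite directions between types was not counted, so the pattern cannot be called particular to Map4k3. Its log2 fold change in CD8+ T cells was higher than in B cells by 1.61 (SE 0.56, edgeR interaction, unadjusted p = 0.00394, adjusted p = 1) and higher than in CD4+ T cells by 1.33 (SE 0.57, adjusted p = 0.905). In annotated plasmablasts it was higher than in B cells by 1.28 (SE 0.48, adjusted p = 1) and higher than in CD4+ T cells by 0.90 (SE 0.48, adjusted p = 1). None of the 4 differences passed the adjusted threshold. Interaction fits were run for 6 pairs of cell types, 5 of them added after seeing the data. In CD8+ T cells Map4k3 rests on 37 UMIs, and its log2 fold change of 0.90 was 0.53 without untreated mouse 1 and 1.64 without untreated mouse 2. In annotated plasmablasts 0.52 became 0.059 with equal cells per mouse, and in their cluster 6 the treated mean was the lower one, at 36.2 CPM against 42.4 CPM in untreated mice.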

How the results depend on the processing

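No member passed the adjusted threshold in any of the 323 alternative values that have a test, and 19 of the 31 member fold changes kept their direction under every alternative run. The number of genes called in B cells, 0 as reported, was 12 with equal cells per mouse, 21 without the low-count filter, 2 with clusters balanced and between 10 and 16 when 1 mouse was left out. In CD4+ T cells it was 11 without the filter. In CD8+ T cells, where 2 were called, it was 0 with DESeq2 and with clusters balanced, 1 with limma-voom and with equal cells, 11 without the filter and 6 to 16 without 1 mouse. In annotated plasmablasts, where 1 was called, it was 0 with DESeq2, 2 with clusters balanced and with the length trend removed, 3 with equal cells, 13 without the filter and 3 to 13 without 1 mouse. In the test of CD4+ T cells against B cells it was 0 with DESeq2, 3 without the filter and 1 to 4 without 1 mouse, against 1 as reported. The sign of Tnik in B cells turned with clusters balanced (0.064), equal cells (0.084) and the length trend removed (0.063), that of Map4k4 in B cells with the same 3 settings (0.022, 0.032 and 0.069) and that of Map4k5 in B cells with clusters balanced (0.089) and the length trend removed (0.012). Mink1 in B cells turned with clusters balanced (0.12), Mink1 in CD8+ T cells with equal cells (-0.15), Map3k5 in CD8+ T cells with the length trend removed (0.017), and Map4k4 in annotated plasmablasts with clusters balanced (0.23) and the length trend removed (0.032). Leaving out each mouse in turn gave log2 fold changes of -0.097 to 0.063 for Map4k4 and -0.21 to 0.088 for Map4k5 in B cells, -0.093 to 0.41 for Map4k1 and -0.41 to 0.051 for Map4k2 in CD4+ T cells, -0.51 to 0.099 for Map4k5 and -0.27 to 0.51 for Mink1 in CD8+ T cells, and -0.57 to 0.20 for Tnik, -0.052 to 0.29 for Map4k1 and -0.16 to 0.041 for Map4k4 in annotated plasmablasts. The causes were not tested. For Tnik in CD4+ T cells the length trend removed moved the value to -0.24. Of 240 alternative levels by cell type, 5 moved by more than 1 SD over the mice, all on thinning. The largest was Tnik in annotated NK cells at 103 CPM, whose range then overlapped that of B cells. As reported 6 members separated CD4+ T cells from B cells, and 5 did so after thinning, when Map4k4 overlapped. Map4k3, Map4k5 and Mink1 no longer separated CD8+ T cells from CD4+ T cells after thinning. When a mouse was left out, the lone mouse of its group was assumed to vary like the others. No paired analysis was possible because the replicate numbers follow accession order and the labels tie no treated mouse to an untreated one. Members with fewer than 100 UMIs in a type carry wide errors.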
